A study of Homo sapiens with 8 samples.

Results

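SOX4 and CASC15 lie next to each other on chromosome 6. All regions of open chromatin around both were followed over 72 h of TGFβ1 in MCF10A, an immortalised cell line from human mammary epithelium. The regions came from 4 ATAC-seq peak lists, which were merged so that peaks sharing 1 bp or more formed 1 region. Of 126658 merged regions, 57 lay between 100 kb before SOX4 and 100 kb beyond CASC15, a stretch of 1261 kb (chr6:21493751-22754455, GRCh38). The locus was selected on measured values of these same lists, since CASC15 ranked among the genes that gained most distal peaks by 72 h. The gains and ratios to solvent given here are therefore descriptions and no independent evidence of a direction.

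ATAC-seq uses a transposase that cuts and tags DNA where nucleosomes leave it free. Wild-type cells received 5 ng/ml TGFβ1 for 6, 24 or 72 h or a matching volume of solvent (0.1% BSA in PBS), and all groups grew in medium with horse serum, EGF, hydrocortisone, cholera toxin and insulin. The labels place the solvent group at time 0, whereas the study describes its control as 72 h of solvent. Each of the 4 groups had 2 replicates, 8 samples in all, but the authors called peaks on both replicates together. There is thus 1 value per region and group, and no difference reported here has a replicate error, an interval or a test. The study gives an equal sequencing target for all samples, but the lists hold no read totals and the depth reached is not known from them. The values describe accessibility and not RNA of either gene.

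The lists held 86209 peaks for solvent and 107656, 118433 and 116720 peaks for 6, 24 and 72 h of TGFβ1. Each peak carries an AUC, which is the area that the peak caller's significance curve encloses, and values under 200 were not kept. AUC values of a region were summed within each list and divided by 1.36, 1.30 and 1.19 at 6, 24 and 72 h, so that the median ratio to solvent at regions within 3 kb of a transcription start site (TSS) was 1. All AUC values in the text are on this scale, and all log2 ratios compare them with solvent. After scaling, a peak at the authors' limit stands at 147, 154 and 169 in the TGFβ1 lists and at 200 in solvent, so a weak region could be listed more easily after TGFβ1 than before it. As a check of the labelled cell type, all 6 of the epithelial genes KRT5, KRT14, KRT17, CDH1, EPCAM and TP63 had a peak over a TSS in every list, and 0 of 5 blood or endothelial genes (PTPRC, CD3E, SPI1, PECAM1, CDH5) had one in any list.

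SOX4 is a transcription factor of the SOX family, which binds DNA through an HMG box, and belongs to the SOXC group together with SOX11 and SOX12. It is a known TGFβ target gene in mammary epithelial cells and is known for a part in epithelial-mesenchymal transition (EMT), in part through EZH2. CASC15 is a long non-coding RNA gene whose many transcripts start at widely spaced sites. NBAT1, a long non-coding RNA transcribed from the opposite strand, and PRL, the gene of the hormone prolactin, lie within the span of CASC15.

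SOX4 (ENSG00000124766.7) is a single-exon gene of 4.87 kb at chr6:21593751-21598619 on the plus strand. CASC15 (ENSG00000272168.10) runs in the same direction over 990 kb, at chr6:21664184-22654455, and begins 70.4 kb beyond the SOX4 TSS. Regions are named below by the distance of their strongest summit from the SOX4 TSS, with positive values towards CASC15. By annotation, 50 of the 57 regions lay in CASC15, of which 9 touched an exon and 41 were intronic. The 57 regions comprised 43 distal ones and 14 within 3 kb of any TSS, so that 24.6% were proximal against 34.4% of all regions. Their density was 4.52 per 100 kb, beside 4.18 per 100 kb over the genome.

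The sequences on which the account turns are given 5′ to 3′ on the plus strand. The first holds the 250 bases before the SOX4 TSS, from RefSeq (GRCh38.p14, chr6:21593501-21593750), with a TEAD motif in capitals. The others are windows that reach 100 bases to either side of the strongest summit, read from the GRCh38 sequence, with the AP-1 motif in capitals where there is one. The region at 291.9 kb (chr6:21885549-21885749) had the highest ratio of summed AUC to solvent and covers start sites of CASC15, and the one at 643.2 kb (chr6:22236865-22237065) was the strongest at a CASC15 start site. The region at 275.8 kb (chr6:21869459-21869659) had AP-1 letters and was lower in all TGFβ1 lists after scaling. The region at 432.1 kb (chr6:22025761-22025961) had a solvent peak and the highest summed-AUC ratio among the distal ones at 72 h. Those at 638.1 kb (chr6:22231767-22231967) and 398.6 kb (chr6:21992255-21992455) had no solvent peak.
SOX4 upstream: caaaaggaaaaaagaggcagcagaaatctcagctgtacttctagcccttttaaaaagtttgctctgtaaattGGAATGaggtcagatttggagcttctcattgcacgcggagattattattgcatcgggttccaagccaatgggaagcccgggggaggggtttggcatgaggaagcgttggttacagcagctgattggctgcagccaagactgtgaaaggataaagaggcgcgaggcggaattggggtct
291.9 kb: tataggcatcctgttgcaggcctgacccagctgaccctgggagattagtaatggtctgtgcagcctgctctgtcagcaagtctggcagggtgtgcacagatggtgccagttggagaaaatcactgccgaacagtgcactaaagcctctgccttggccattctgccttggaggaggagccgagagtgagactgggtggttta
643.2 kb: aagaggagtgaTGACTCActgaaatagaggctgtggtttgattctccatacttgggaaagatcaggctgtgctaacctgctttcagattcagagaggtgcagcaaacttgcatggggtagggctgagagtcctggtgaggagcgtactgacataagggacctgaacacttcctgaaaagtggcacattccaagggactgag
275.8 kb: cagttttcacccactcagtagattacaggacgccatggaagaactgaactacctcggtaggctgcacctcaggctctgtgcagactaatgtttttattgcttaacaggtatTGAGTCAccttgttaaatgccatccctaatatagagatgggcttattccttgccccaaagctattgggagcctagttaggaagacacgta
432.1 kb: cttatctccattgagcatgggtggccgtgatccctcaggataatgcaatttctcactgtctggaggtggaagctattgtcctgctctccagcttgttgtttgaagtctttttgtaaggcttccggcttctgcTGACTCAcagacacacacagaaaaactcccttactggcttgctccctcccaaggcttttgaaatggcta
638.1 kb: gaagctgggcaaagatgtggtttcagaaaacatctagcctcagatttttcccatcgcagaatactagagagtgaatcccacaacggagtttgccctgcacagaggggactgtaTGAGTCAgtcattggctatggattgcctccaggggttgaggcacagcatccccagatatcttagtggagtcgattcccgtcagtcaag
398.6 kb: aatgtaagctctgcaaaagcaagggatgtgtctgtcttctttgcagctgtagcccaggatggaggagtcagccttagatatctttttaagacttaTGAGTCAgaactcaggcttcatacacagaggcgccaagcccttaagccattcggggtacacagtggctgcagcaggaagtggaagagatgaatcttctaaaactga

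The SOX4 promoter was open in every list. Its region (chr6:21593346-21596003) covers the TSS, overlaps the coding sequence and covers the TSS of an antisense long non-coding RNA, ENSG00000283480. Its AUC in solvent was 3939, and the TGFβ1 lists gave 4131 (6 h), 3235 (24 h) and 3056 (72 h). The log2 ratios of 0.07, -0.28 and -0.37 stayed within 1.5-fold of solvent, and without scaling they were 0.51, 0.10 and -0.12, so the direction at 24 h depended on the scaling. The promoter was thus at its highest scaled AUC at 6 h and lower in both later lists. Its width was 2276 bp in solvent and 2658, 2303 and 2312 bp after TGFβ1. Per covered base, the log2 ratios were -0.01, -0.18 and -0.32. The −log10 q at the summit, which is not scaled between lists, did not fall below solvent. It was 7.3 in solvent and 8.5, 8.8 and 8.5 after TGFβ1, beside medians of 5.9, 7.2, 7.2 and 7.0 over all regions with a peak in every list.

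Promoters of other protein-coding genes place the ratios of summed AUC at SOX4. Over the 13383 protein-coding genes with a TSS region in all 4 lists, 20.5% had a higher ratio than SOX4 at 6 h, 94.7% at 24 h and 96.6% at 72 h. The level of SOX4 itself was exceeded by 35.8% of them in solvent and by 49.5% at 72 h. The patterns nearest to that of SOX4, by Euclidean distance over the 3 log2 ratios, were those of AKAP5 (distance 0.029), RPL21 (0.044), HDGFL3 (0.044), NEK9 (0.064) and CPT1A (0.071), and 22 genes lay within 0.1 of it. AKAP5, an anchoring protein for kinase A, had an AUC of 900, 928, 732 and 698 from solvent to 72 h, well below the level of SOX4 in each list.

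Around the promoter, 2 further regions were followed. The region 4.8 kb before the TSS (chr6:21587443-21589555), in an intron of ENSG00000283480, was the strongest distal one of the locus, with an AUC of 4140, 4313, 4169 and 4379. Its log2 ratios of 0.06, 0.01 and 0.08 were close to 0 at every time. The region over the 3′ UTR of SOX4, 3.1 kb from the TSS (chr6:21596109-21597267), had an AUC of 482, 1099, 858 and 741. This region also lies 516 bases from the TSS of ENSG00000283480, the nearest one to it. It was highest at 6 h, with a log2 ratio of 1.19 that came down to 0.83 and 0.62. Its width went from 537 bp in solvent to 1159, 928 and 657 bp, and the log2 ratios per covered base were 0.22, 0.17 and 0.40. Between the genes, at 41.1 kb, 1 intergenic region had an AUC of 980, 1608, 1696 and 1652, higher in every TGFβ1 list than in solvent.

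Of 77 distinct TSSs annotated for CASC15, 9 were covered by a region and 53 lay within 3 kb of one. The nearest region to the most upstream CASC15 TSS lay 15.6 kb from it. The covered ones fell into 3 regions, at 291.9, 519.5 and 643.2 kb, deep inside the gene.

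The largest ratio of summed AUC in the locus was found at one of these internal start sites. The region at 291.9 kb (chr6:21885241-21886162) covers 5 TSSs of CASC15, and its summit at 72 h lay 7 bases from the nearest. Its AUC was 696 in solvent and 2321, 2622 and 2791 in the TGFβ1 lists, so that all TGFβ1 lists stood above solvent and most of the difference was present at 6 h. The log2 ratios were 1.74, 1.91 and 2.00, and 0.310%, 0.875% and 1.12% of all shared regions reached as high a ratio. The peak was 286 bp wide in solvent and 869, 922 and 884 bp wide in the TGFβ1 lists, and per covered base the log2 ratios were 0.28, 0.35 and 0.45. On that measure other regions stood higher, as 0.89 at 6 h at 519.0 kb, and 0.99 at 24 h and 1.11 at 72 h at 432.1 kb. The −log10 q at the summit, which does not depend on width, was 5.8 in solvent and 10.0, 10.3 and 10.4 after TGFβ1. These summit values are not scaled between lists, whose medians over all regions were 5.9, 7.2, 7.2 and 7.0, and the summit itself stayed within 9 bp in the 4 lists.

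The other regions that cover CASC15 start sites, at 519.5 and 643.2 kb, were open in solvent and had smaller ratios of summed AUC. At 643.2 kb (chr6:22236343-22237398) the AUC was 3042, 3864, 4110 and 4347, with log2 ratios of 0.34, 0.43 and 0.51. At 519.5 kb (chr6:22112936-22113649) it was 1462, 1985, 1954 and 2215, with log2 ratios of 0.44, 0.42 and 0.60. Just before it, at 519.0 kb, a weak region had an AUC of 272, 587, 511 and 437, highest at 6 h and declining after it as over the 3′ UTR of SOX4. For both start sites the ratio per covered base was near 0, at 0.04, 0.12 and 0.13 for the first and -0.10, -0.15 and -0.10 for the second.

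The other regions near CASC15 start sites were weak to moderate. At 304.6 kb, 215 bases from a TSS, the AUC was 281, 454, 447 and 423. At 307.2 kb, where the region touches an exon, it was 867, 956, 1120 and 1347, highest at 72 h. At 313.3 kb the region had no peak in solvent or at 6 h and an AUC of 189 at 24 h and 180 at 72 h, close to the limit of detection. At 460.4 kb a single peak, at 24 h, had an AUC of 161. The region at 554.5 kb, 295 bases from a CASC15 TSS, is described below.

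**Figure D1:**
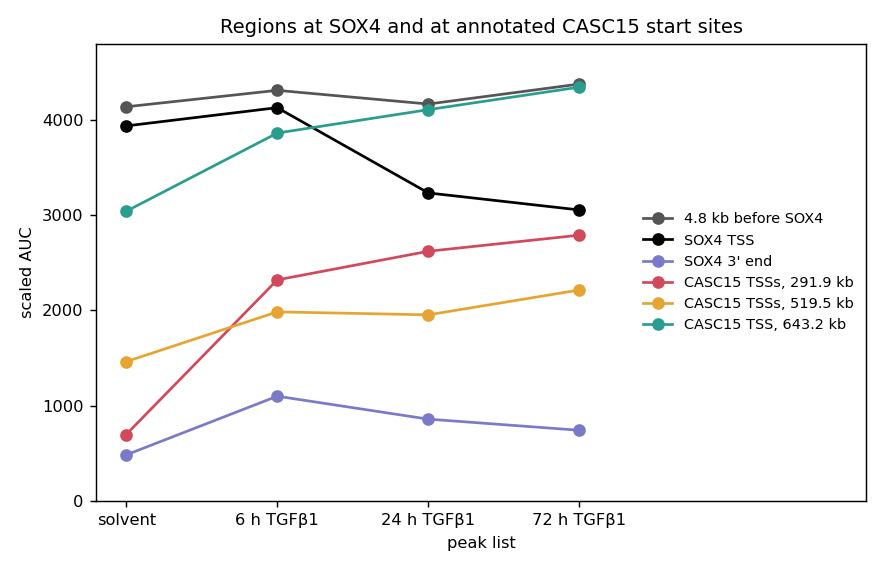
Scaled AUC (vertical axis, no unit) in the 4 peak lists (horizontal axis) of the regions at SOX4 and at annotated CASC15 start sites, with 1 point per region and list and lines joining the points of a region. The SOX4 TSS region went from 3939 in solvent to 3056 at 72 h, while the CASC15 region at 291.9 kb went from 696 to 2791.

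No TSS of PRL, NBAT1 or HDGFL1 was covered by a region in any list. The nearest region to PRL, at 727.2 kb, had no peak in solvent or at 6 h and an AUC of 651 at 24 h and 707 at 72 h. A region at 554.5 kb touches a CASC15 exon, 295 bases from the nearest TSS, which is one of CASC15, and is also close to the start of NBAT1. It likewise had an AUC of 329 at 24 h and 368 at 72 h and no peak in the earlier lists.

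Over the whole locus, 28 of 57 regions had a solvent peak, and 42, 52 and 53 had a peak at 6, 24 and 72 h. These were 49.1%, 73.7%, 91.2% and 93.0% of the 57, beside 65.1%, 84.0%, 91.6% and 89.9% of all regions. All 28 regions of the solvent list were present in all 3 TGFβ1 lists, so none was lost at any time. Among all regions with a solvent peak, 0.714%, 1.86% and 3.44% had none at 6, 24 and 72 h. Regions with a TGFβ1 peak and no solvent peak numbered 14, 24 and 25, which is 24.6%, 42.1% and 43.9% of the 57. Over all regions these shares were 19.3%, 27.6% and 27.0%, and nothing is read from the difference, since the locus was chosen for gains. With an AUC of at least 200 required after scaling, the numbers gained were 10, 19 and 19, beside 15277, 26516 and 29045 of all 126658 regions. With every list cut to the length of the solvent list, 28, 32, 37 and 40 locus regions had a peak in solvent and at 6, 24 and 72 h.

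**Figure D2:**
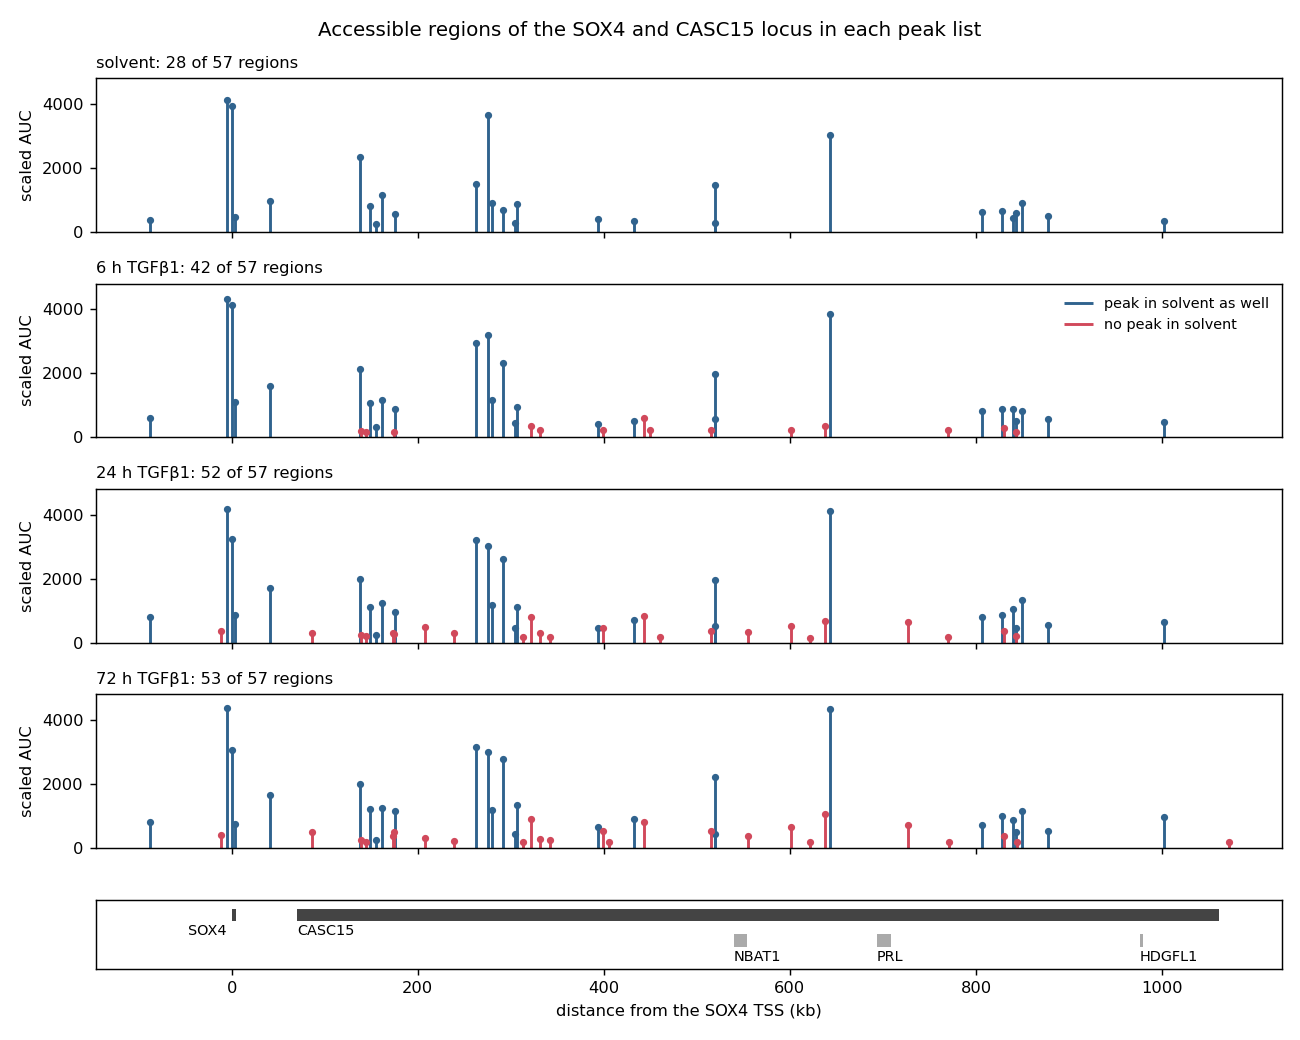
Scaled AUC (vertical axis, no unit) of each region in the 4 lists, by distance from the SOX4 TSS in kb, with genes drawn as bars below. Blue stems are the 28 regions with a solvent peak and red stems those without; the red stems number 14 at 6 h and 25 at 72 h and reach at most 1053.

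Of the 29 regions without a solvent peak, 14 were first listed at 6 h, 11 at 24 h and 4 at 72 h alone. In the series, 44165 regions had no solvent peak, of which 24437 were first listed at 6 h and 5839 at 72 h alone. In the locus, 11 of the 14 early ones were present in every TGFβ1 list, beside 18085 of the 24437 in the series. Of the 11 regions first seen at 24 h, 10 were still present at 72 h. Among such regions of the series, 9558 were still present at 72 h and 4331 were not. The 11 regions in every TGFβ1 list made up 19.3% of the locus, against 14.3% of all regions, and were 4 when every list was cut to the length of the solvent list. The 10 regions listed at 24 and 72 h alone made up 17.5%, against 7.55% of all regions. A region of the last kind at 86.1 kb, the first one inside CASC15, had an AUC of 298 at 24 h and 505 at 72 h.

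The regions listed at 72 h alone, and those absent again at 72 h, were weak. A peak at 6 h alone was found at 449.7 kb (AUC 214), and peaks at 6 and 24 h but not at 72 h were found at 769.6 kb (235 and 160) and 843.4 kb (154 and 202). The 4 regions listed at 72 h alone, at 405.4, 770.7, 844.1 and 1071.4 kb, had an AUC between 173 and 200, so all of them would have been at or under the authors' limit in the solvent list. Among the 10 regions listed at 24 and 72 h, the region next to PRL was the strongest at 72 h. The region at 207.4 kb (485 at 24 h and 311 at 72 h) and that at 238.5 kb (300 and 226) came down between these lists, as did the one at 313.3 kb. The region at -11.0 kb, before SOX4, stood at 360 and 416.

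The regions with a peak in every TGFβ1 list and none in solvent all lay within CASC15 and grew over time. The largest at 72 h was the intronic region at 638.1 kb, with an AUC of 349, 669 and 1053 from 6 to 72 h. It lies 4.65 kb from the nearest CASC15 TSS, near the strong start-site region at 643.2 kb. The region at 322.2 kb had an AUC of 349, 791 and 908. At 442.7 kb the AUC was 610, 819 and 801, which made this region the strongest of the 11 at 6 h. The 8 largest were completed by regions at 601.0, 514.7, 398.6, 174.7 and 830.6 kb, whose AUC lay between 158 and 304 at 6 h and between 386 and 652 at 72 h.

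From 6 to 24 h, 11 of these 11 regions rose, with a median log2 step of 0.72, beside a median of 0.50 and a share rising of 84.9% for the 18085 regions of this kind in the series. From 24 to 72 h, 8 of 11 rose, with a median of 0.19 beside 0.10 and 60.4%. Regions seen in all 4 lists had median log2 steps of 0.02 and 0.02 in the locus and of 0.05 and 0.03 in the series, but single regions of the locus moved by -0.40 to 0.66 from 6 to 24 h and by -0.27 to 0.55 from 24 to 72 h. The larger step of the newly listed regions was thus that from 6 to 24 h. The summits of the 11 regions ranged over 3 to 72 bp between their 3 lists (median 16 bp), and those of the 28 regions over 0 to 141 bp between 4 lists (median 28 bp), with 19 of the 28 within 50 bp.

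**Figure D3:**
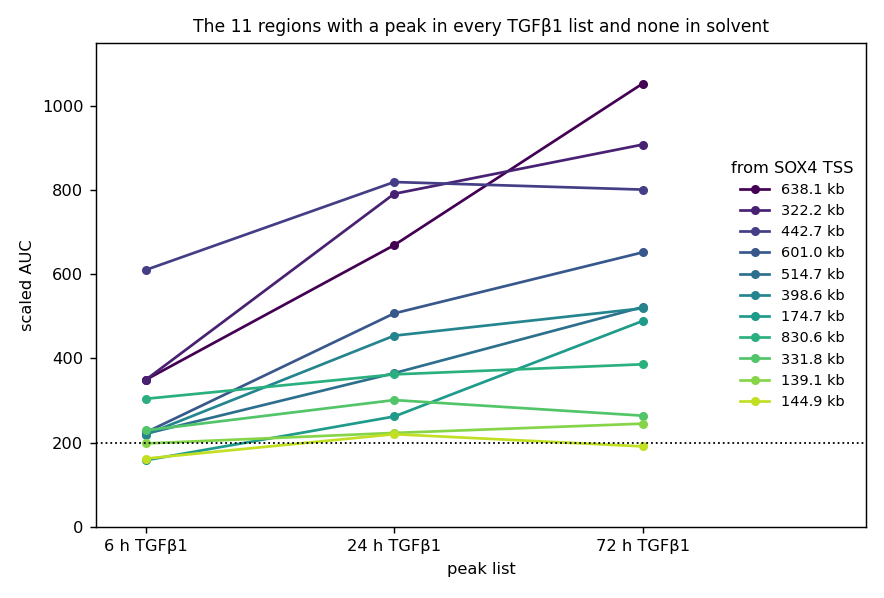
Scaled AUC (vertical axis, no unit) at 6, 24 and 72 h of TGFβ1 (horizontal axis) of the 11 regions with a peak in every TGFβ1 list and none in solvent, 1 line per region, named by distance from the SOX4 TSS. The dotted line marks an AUC of 200; the region at 638.1 kb reached 1053 at 72 h, the highest of the 11.

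For the 28 regions with a solvent peak, the median log2 ratios were 0.40, 0.43 and 0.59 at 6, 24 and 72 h. Over all shared regions it was 0.06, 0.12 and 0.15. The ratio was above 0 in 23 of the 28 (82.1%) at each time, beside 59.1%, 62.5% and 63.9% of all shared regions. At least 1.5-fold higher were 10, 11 and 15 of them (35.7%, 39.3% and 53.6%), beside 11.7%, 20.3% and 22.9% of all shared regions. None was 1.5-fold lower at any time, beside 1.40%, 3.22% and 3.90% of all shared regions. Since the locus was selected on the 72 h contrast, which shares its solvent list with the earlier ones, no weight is placed on these shares.

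These counts rest on the summed AUC and so on peak width as well as height. Per covered base, 2, 4 and 3 of the 28 regions were 1.5-fold higher, beside 5.41%, 10.5% and 11.6% of all regions, and the median log2 ratios were 0.15, 0.27 and 0.27 beside 0.02, 0.06 and 0.06. The −log10 q at the summit, unscaled, had a median of 5.8 in solvent and of 7.2, 7.3 and 7.1 after TGFβ1, and it was above solvent in 28, 27 and 26 of the 28. Over all 79275 regions with a peak in every list the medians were 5.9, 7.2, 7.2 and 7.0, and 98.1%, 94.7% and 88.4% were above solvent.

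**Figure D4:**
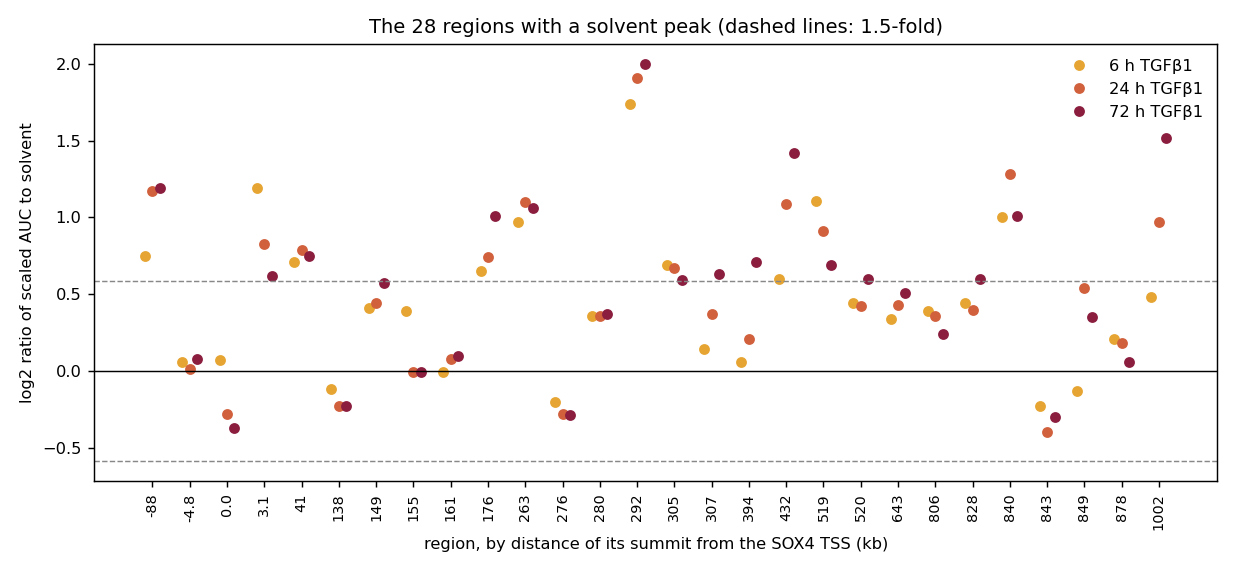
Log2 ratio of scaled AUC to solvent (vertical axis) at 6, 24 and 72 h for each of the 28 regions with a solvent peak, in order of distance from the SOX4 TSS (horizontal axis, kb, not to scale). Dashed lines mark 1.5-fold; no point lies below the lower line, and the region at 291.9 kb is highest at every time.

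Ratios were also split by the level in solvent. Among distal regions with a solvent AUC under 1000, the 14 of the locus had median log2 ratios of 0.40, 0.42 and 0.58, beside 0.20, 0.35 and 0.39 for all distal regions of that level. Among those at 1000 or more, the 5 of the locus had medians of -0.01, 0.01 and 0.08, beside 0.01, 0.04 and 0.10. The exception among the strong ones was the intronic region at 262.9 kb (chr6:21856088-21857236), with an AUC of 1507, 2949, 3223 and 3143 and log2 ratios of 0.97, 1.10 and 1.06. In solvent it consisted of 2 peaks covering 562 bp, which were fused into 1 in each TGFβ1 list and covered 1089, 1110 and 1117 bp, and its log2 ratios per covered base were 0.16, 0.24 and 0.14.

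Among the weak distal regions, the highest ratio at 72 h was that in an intron of CASC15 at 432.1 kb, where the AUC was 332, 505, 709 and 889. Its log2 ratios of 0.60, 1.09 and 1.42 rose in each list, and the ratios per covered base of 0.45, 0.99 and 1.11 did so as well. At 1002.5 kb, near the 3′ end of CASC15 and within 3 kb of the start of ENSG00000228772, the AUC was 331, 463, 650 and 953, with log2 ratios of 0.48, 0.97 and 1.52. Here the log2 ratio per covered base was 0.32 at 72 h, when the peak was widest. At the other end of the locus, at -87.9 kb in an intron of LINC00581, the AUC was 360, 604, 811 and 824. The regions at 176.0 kb (570, 895, 949 and 1151) and 840.2 kb (437, 872, 1060 and 880) completed the 5 distal regions of highest ratio at 72 h. The latter was 256 bp wide in solvent and 544, 526 and 506 bp wide after TGFβ1, and its log2 ratios per covered base were 0.05, 0.36 and 0.10.

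The remaining strong distal regions inside CASC15 changed less than 1.5-fold. At 161.3 kb, touching an exon, the AUC was 1170, 1164, 1233 and 1253, and at 148.7 kb it was 817, 1083, 1109 and 1209. At 849.3 kb it was 914, 837, 1326 and 1163, lower than solvent at 6 h and higher in both later lists. The log2 ratio there at 6 h was -0.13, and 0.31 without scaling.

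The lowest ratios among the distal regions were small. At 842.6 kb the AUC was 603, 515, 456 and 491, with log2 ratios of -0.23, -0.40 and -0.30. At 275.8 kb (chr6:21868937-21869945), the second strongest distal region in solvent, it was 3672, 3205, 3028 and 3012. At 138.2 kb it was 2339, 2150, 1990 and 1996. A weak region at 155.1 kb had an AUC of 255, 335, 253 and 253, with a log2 ratio of -0.01 at 24 and at 72 h. After scaling, these 4 and the SOX4 promoter were the 5 regions below solvent at 72 h, and none of them passed 1.5-fold. The directions depended in part on the scaling. Without it, the log2 ratios were 0.21, -0.02 and -0.05 at 842.6 kb and 0.25, 0.10 and -0.04 at 275.8 kb. They were 0.32, 0.15 and 0.02 at 138.2 kb and 0.84, 0.37 and 0.24 at 155.1 kb. The last of the distal regions of lowest ratio, at 877.5 kb, stood just above solvent with an AUC of 497, 577, 564 and 517.

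New regions were most numerous in the middle of CASC15. With CASC15 cut into 4 stretches of equal length, the second (regions from 322.2 to 554.5 kb) held 14 regions, of which 10 had no solvent peak, and its summed AUC at 72 h was 3.25 times that of solvent over a covered length 3.65 times as large. The first stretch held 19 regions, 8 of them without a solvent peak, with a summed AUC of 1.55 times solvent at 72 h and 1.75 times the covered length. In the third and last stretches, 6 of 8 and 3 of 9 regions had no solvent peak. The sums there at 72 h were 2.15 and 1.62 times solvent over 2.86 and 1.58 times the covered length. Over SOX4 itself the sum of both regions was 1.18, 0.926 and 0.859 times solvent at 6, 24 and 72 h over 1.36, 1.15 and 1.06 times the covered length. The locus as a whole had a summed AUC of 32533, 44373, 50130 and 52938, or 1.36, 1.54 and 1.63 times solvent, over 14.8, 22.6, 25.2 and 25.4 kb covered by peaks. The mean AUC per covered base was 2.20, 1.97, 1.99 and 2.08. Regions without a solvent peak contributed 8.18%, 17.5% and 19.4% of the TGFβ1 sums.

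At the edges of the rule, the outermost regions inside the locus lay at -87.9 kb and at 1071.4 kb, the latter with a single peak at 72 h and an AUC of 174. Just outside, a region at -110.5 kb had no solvent peak and an AUC of 541, 622 and 399, and one at 1162.8 kb had an AUC of 260 at 24 h and 261 at 72 h.

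The search for motifs covered both strands within 100 bases of the strongest summit. AP-1 (TGACTCA or TGAGTCA), the site bound by dimers of JUN and FOS family proteins, occurred in 19 of 57 windows (33.3%), beside 32.2% of all regions and 37.5% of all distal ones. In the locus it was in 11 of 28 regions with a solvent peak (39.3%, beside 30.4% in the series) and in 8 of 29 without one (27.6%, beside 35.7%). It lay within 30 bases of the summit in 9 of the 19, as 2 bases from it at 398.6 kb, 3 bases at 840.2 kb and 16 bases at 638.1 kb, all shown or named above. Regions with and without AP-1 letters had like ratios in the locus, with median log2 ratios of 0.39, 0.42 and 0.60 in the 11 and 0.41, 0.44 and 0.59 in the 17. Over all regions these medians were 0.17, 0.28 and 0.35 with the letters and 0.02, 0.06 and 0.06 without. The region of largest ratio, at 291.9 kb, held none of the 10 motifs in its window. The one at 275.8 kb held AP-1 14 bases from its summit. After scaling it was below solvent in each TGFβ1 list, and without scaling it was above solvent at 6 and 24 h.

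The short SMAD motif (CAGACA), bound by the transcription factors that TGFβ receptors activate, occurred in 15 windows (26.3%, beside 18.5% of all regions), and the SMAD palindrome (GTCTNGAC) in 1 (1.75%, beside 1.36%), at 770.7 kb. The E-box CACCTG, the site of SNAIL and ZEB repressors, was in 10 (17.5%, beside 18.0%), of which 2 were among the 28 regions with a solvent peak (7.14%, beside 19.3% in the series) and 8 among the 29 without one (27.6%, beside 15.5%). TEAD (GGAATG) was in 10 (17.5%, beside 15.9%), SOX (ACAAAG) in 6 (10.5%, beside 14.4%) and C/EBP (TTNNGCAA) in 7 (12.3%, beside 12.6%). ETS (CCGGAAG) and RUNX (TGTGGTT) were each in 3 (5.26%, beside 2.55% and 6.51%), CRE (TGACGTCA) was in 0 (beside 0.521%), and 11 windows held no motif of the list. With 57 windows, a share moves by 1.75 percentage points per region, and a match shows only that the letters are present.

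In the RefSeq promoter of SOX4, from 250 bases before to 50 after the TSS, the TEAD letters started at base 73 and no other motif of the list was found. TEAD letters occurred in 14.0% of 35116 RefSeq promoters and AP-1 letters in 4.95%. The RefSeq promoter of CASC15 (chr6:21666163-21666462, GC content 66.7%) was not covered by a region in any list. It held a SOX and a short SMAD match that overlap each other, at bases 278 and 281, and these motifs occurred in 16.1% and 16.9% of RefSeq promoters.

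Promoters of other SOX genes were followed in the same way. Of 18 further family members, 8 had a region over a TSS and 7 had it in all 4 lists, with median log2 ratios of -0.02, -0.01 and -0.11, beside -0.06, -0.09 and -0.09 for all protein-coding genes. Of these 7, SOX5, known for a part in cartilage formation together with SOX6 and SOX9, was 1.5-fold higher, with an AUC of 232, 469, 696 and 592. Higher ratios of this size were found for 1.96%, 2.68% and 2.46% of protein-coding genes. SOX12, the other SOXC member with a TSS region, had an AUC of 10064, 8791, 8027 and 8582, and SOX9 had one of 3876, 4178, 4121 and 4013. SOX18, a regulator of endothelial and lymphatic development, had no solvent peak and an AUC of 286, 429 and 186.

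Among 6 genes known to act with or under SOX4 (EZH2, TEAD2, SEMA3C, TUBB3, KLF5 and SMAD3), all had a TSS region in every list and 1 was 1.5-fold higher. This was TEAD2, a DNA-binding partner of the coactivators YAP and TAZ, with an AUC of 509, 946, 1252 and 1080. EZH2, the methyltransferase of the Polycomb repressive complex, had an AUC of 4284, 4466, 4073 and 4380, and SMAD3, a mediator of TGFβ signalling, one of 3992, 4119, 4011 and 4641. None of the 6 was 1.5-fold lower, beside 0.141%, 0.656% and 1.03% of protein-coding genes.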

How the data were processed

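ATAC-seq was performed on 8 samples of MCF10A cells. According to the submitters' notes and the study's methods, the authors used Trimmomatic 0.38 for trimming, Bowtie2 2.4.5 for alignment to GRCh38, Picard and SAMtools 1.4.1 for the removal of duplicate and poorly mapped reads, and Genrich 0.5 to call peaks jointly from both replicates of a group. The deposited lists give for each peak a signal value (AUC, kept from 200 upwards and not scaled between lists), a display score, which was not analysed, and the −log10 of p and q for its summit, of which q was used.

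Peaks of the 4 lists sharing 1 bp or more were merged. Genes and TSSs came from GENCODE 44 (252835 transcripts of 62700 genes). AUC was summed per region and list and divided by the median ratio to solvent at the proximal regions shared with solvent (32923, 32594 and 32098 at 6, 24 and 72 h). A region was higher or lower past 1.5-fold. Software was Python 3.11.15, pandas 2.3.3, numpy 2.4.6, pysam 0.24.0 and matplotlib 3.10.9.

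SOX4 lies before CASC15, so the locus was taken from 100 kb before SOX4 to 100 kb beyond CASC15. The members and the gene and motif lists were chosen with earlier results of these data known, and the 11 marker genes of the cell type check were chosen during the analysis, with 1 further gene not reported here. Named regions were those within 3 kb of a SOX4 or CASC15 TSS, the 8 strongest distal ones, the 8 strongest at 72 h of those in every TGFβ1 list alone, and the 5 distal ones of highest and of lowest ratio at 72 h; others are named because of their position or time of appearance and were chosen after their values were seen. Alternatives covered the AUC minimum, list length, overlap, locus extent, scaling and the AUC measure.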

Additional observations from a re-analysis of the deposited data

How the results depend on the processing

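Over 11 alternatives, 175 of 190 recomputed values kept their main result, meaning a count within 1.5 times or a log2 value within 1.5-fold, and none of the called values reversed. Only a log2 value past 1.5-fold could count as reversed, so smaller values that changed sign count as kept. Such changes occurred at the SOX4 promoter at 24 h without scaling and at 6 h per covered base. The region 4.8 kb before SOX4 changed sign at each time with scaling at all shared regions. The number of regions 1.5-fold higher than solvent was the least stable. With an AUC of at least 400 it was 6 at 6 h and 6 at 24 h, without scaling it was 19 at 6 h and 20 at 24 h, and with scaling at all shared regions it was 8 at 72 h. With the AUC per covered base it was 2, 4 and 3 at 6, 24 and 72 h. With all lists cut to the length of the solvent list, 4 regions had a peak in every TGFβ1 list and none in solvent. This cut took the listed locus regions from 42 to 32 (6 h), 52 to 37 (24 h) and 53 to 40 (72 h). Solvent stayed at 28. The totals after the cut count as kept, because each was within 1.5 times of the main one. Their excess over solvent was nevertheless smaller at every time, so the gains depended on list length. The requirement of an AUC of at least 200 after scaling was added after the data had been seen. The log2 ratios at 262.9 and 291.9 kb also moved with the AUC per covered base, as given with those regions; for both, the covered length was larger in each TGFβ1 list than in solvent. For the other changes, the cause was not tested. No paired analysis was possible because each list was called on both replicates together, and for the same reason no replicate could be left out. The depth reached is not known from the lists, so a region without a solvent peak may have been open below the authors' limit.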
